A study of Mus musculus with 2 samples.

Results

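The cytosolic ribosomal protein genes were compared between PPARg-deficient and PPARg-floxed bone marrow mesenchymal stem/progenitor cells. The genes were chosen by name: protein-coding genes with symbols that start with Rpl or Rps and a digit, together with Rplp0, Rplp1, Rplp2 and Rpsa. Genes of the Rps6k kinases, Rps19bp1 and pseudogenes were left out, as were 6 protein-coding entries whose names mark them as pseudogene copies. This gave 85 genes in the GENCODE M21 mouse annotation, of which 82 could be matched to a locus of the deposited files, among 25913 loci in all. The matched genes were 50 of the large and 32 of the small ribosomal subunit, and 5 of them were paralogs of another member (Rpl3l, Rpl7l1, Rpl22l1, Rpl39l and Rps27l). Rpl10l, Rpl36al and Rps27rt were not matched. Rpl3l, the form of heart and skeletal muscle, was matched but listed at 0 in both libraries, so 81 members had a value of at least 1 FPKM in at least 1 library.

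RNA was sequenced from 2 libraries, 1 of each genotype, both from cells labelled as taken from 3-month-old CD-1 mice and grown in DMEM with fetal bovine serum. The first library came from cells whose PPARg gene was floxed, meaning flanked by sites for Cre recombinase, and the second from cells labelled as PPAR knockout. PPARg is the nuclear receptor that drives fat cell formation, and the labels do not say how it was deleted, by which Cre, in which cells, or how many animals gave the cells of a library. With 1 library per genotype no difference below has a replicate check, and no test, standard error or p-value could be computed.

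The ribosome reads messenger RNA with its small subunit and joins amino acids in its large subunit. Each subunit is built in the nucleolus from ribosomal RNA and a set of proteins. Most of these proteins are needed in equal numbers, so the cell makes them together. Most messages of ribosomal proteins begin with a C followed by a run of pyrimidines, the 5′ terminal oligopyrimidine (TOP) start. Through it, growth signals acting by mTOR set their translation.

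The TOP start is shown first because it is the feature these genes are best known to share. Among 65 members with a promoter in the RefSeq table (GRCm38.p6), 14 (21.5%) had at least 1 annotated start at a C followed by 4 bases that were each C or T, against 2.67% of 17492 coding genes. A start annotated a few bases away from the one that cells use would be missed by this rule. Of the 14 genes, 13 had a value in the libraries. The windows below run from 30 bases before the annotated start to the first 15 bases of the transcript, 5′ to 3′ on the gene's strand, and capitals mark the pyrimidine run from the first transcribed base. The first 5 belong to the members that were at least 2-fold higher in the deficient library relative to the median locus, and the last 3 to those that were at least 2-fold lower. In order they lie at chr17:27635230-27635274 (minus strand), chr7:141447621-141447665 (plus), chr16:33056452-33056496 (plus), chr7:4792935-4792979 (plus), chr7:118116133-118116177 (minus), chr17:33955651-33955695 (minus), chr2:39005117-39005161 (minus) and chr4:86857353-86857397 (minus).
Rps10: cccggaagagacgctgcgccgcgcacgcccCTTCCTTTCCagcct
Rplp2: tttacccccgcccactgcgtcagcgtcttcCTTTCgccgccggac
Rpl35a: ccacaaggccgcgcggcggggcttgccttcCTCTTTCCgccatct
Rpl28: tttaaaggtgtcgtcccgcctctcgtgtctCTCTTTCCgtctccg
Rps15a: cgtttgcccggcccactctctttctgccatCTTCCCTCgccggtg
Rps18: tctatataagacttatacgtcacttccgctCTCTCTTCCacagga
Rpl35: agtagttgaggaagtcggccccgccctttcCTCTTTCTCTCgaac
Rps6: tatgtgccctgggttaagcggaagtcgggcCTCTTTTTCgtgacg

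Genes with the same kind of start stood at both ends of the order. Of the 13 members with a TOP start and a value, 5 were at least 2-fold higher (10.3% of all kept loci) and 3 at least 2-fold lower (11.7%) relative to the median of all kept loci, with a median relative log2 fold of 0.17, and the 48 members with a promoter in the table but no such start had a median of 0.21, with 7 higher and 4 lower. In the whole promoter window, from 250 bases before to 50 after the start and on both strands, CCGGAAG, a sequence of the kind bound by ETS factors, stood in 40% of the members and in 12.9% of all coding genes. The Sp1-type sequence GGGCGG stood in 61.5% and 49.2%, and the TATA sequence TATAAA in 10.8% and 14.8%. None of these sequences holds another of them. These are matches of letters and say nothing of binding.

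Levels are in FPKM, fragment numbers corrected for transcript length and library size, summed over the transcripts of a gene. Folds are differences of log2(FPKM + 1) between the deficient and the floxed library, a scale that understates low genes. The median kept locus (at least 1 FPKM in 1 library, longest transcript at least 300 nt) was itself 1.81-fold higher in deficient cells, a log2 shift of 0.86. Folds are therefore given relative to that median unless stated otherwise, and "higher" or "lower" without a number means at least 2-fold relative to it. Coverage over all transcripts came to 1383 megabases for the floxed and 1728 megabases for the deficient library. Read counts are not in the fields used here, so the depth behind a value is unknown, and the bounds quoted are the authors' deposited bounds of a transcript's FPKM within 1 library. Pparg, the targeted gene, was at 6.86 FPKM in the floxed and 1.39 FPKM in the deficient library, a relative log2 fold of -2.58. Of 12 stromal markers 8 were kept, with a relative median of -0.08, 1 higher (Cxcl12, 60.4 and 318 FPKM) and 1 lower (Nt5e, 1.86 and 1.01 FPKM). Ly6a (530 and 841 FPKM, -0.19), Vcam1 (59.9 and 60.2 FPKM, -0.85) and Itgb1 (28.2 and 34.7 FPKM, -0.56) lay below the median locus. Of the 8 kept stromal markers, 4 lay above it. Thy1 (0 and 0.42 FPKM) and Eng (0.03 and 0 FPKM) were near 0. Of 9 leukocyte markers the summed level was 1.82 and 21.9 FPKM, with Lyz2 at 0.26 and 19.5 FPKM and Ptprc, Itgam, Adgre1 and Cd3e at 0 in both. The summed level of erythroid and megakaryocyte markers was 0 and 0.75 FPKM and that of endothelial markers 0.02 and 0.26 FPKM. The part of these cells in the results below was not tested. In bulk RNA, fewer cells of a type and less RNA per cell cannot be told apart.

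As a group the ribosomal protein genes lay close to the median locus, but they did not move as one. Their median level was 161 FPKM in the floxed and 305 FPKM in the deficient library, a relative median log2 fold of 0.17. Of the 81 kept members 14 were higher, against 10.3% of all kept loci, and 10 were lower, against 11.7%. The other 57 lay within 2-fold of the median locus, and 47 members lay above it, where 50% of all kept loci do. As deposited, 42 members were at least 2-fold higher (41.9% of kept loci) and 3 at least 2-fold lower (4.65%), and 70 were higher by any amount (86.2%). The relative median changed sign with upper-quartile scaling (-0.05), with a filter of 5 FPKM (-0.05) and with a pseudocount of 0.1 FPKM (-0.11), so no direction is given for the family. Relative folds of single members ran from -5.61 for Rpl39l to 3.21 for Rps12. The bounds of a member's major transcript did not overlap between the libraries in 76 of 81 members (72.4% of kept loci). These bounds were compared as deposited, without removing the 1.81-fold shift of the median locus. Rpsa, with a relative log2 fold of -0.02, is thus counted as not overlapping, and Rpl14, at -0.84, as overlapping.

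**Figure D1:**
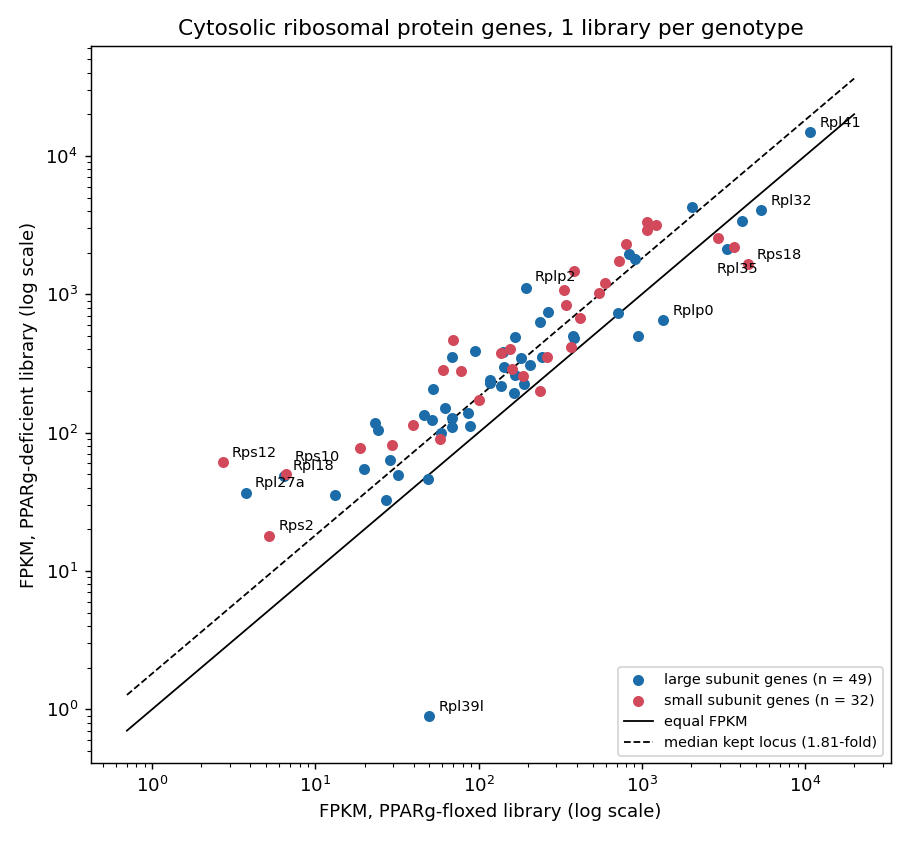
FPKM of each of the 81 kept members in the floxed (x axis) and deficient library (y axis), both on log scales, with large subunit genes in blue and small subunit genes in red. Points lie around the dashed line of the median locus (1.81-fold), with Rps12 farthest above it and Rpl39l farthest below, and 5 of the 6 most abundant genes of the floxed library lie under the line of equal FPKM.

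The small subunit genes had the higher relative median. The 32 small subunit members had a relative median of 0.50, with 6 higher and 4 lower, and their summed level was 20530 FPKM in the floxed and 30092 FPKM in the deficient library. The 49 kept large subunit members had a relative median of 0.08, with 8 higher and 6 lower, and sums of 34849 and 43891 FPKM. Of the 14 members on chromosome 7, described below, 9 were small subunit genes. Without that chromosome the medians were 0.04 for the small and -0.14 for the large subunit.

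Although most of these proteins are needed in equal numbers, their messages differed widely in level per length. In the floxed library the highest kept member exceeded the lowest 3981-fold, and 5 genes (Rpl41, Rpl32, Rps18, Rpl4 and Rps28) held 51.3% of all member FPKM. Rpl41, the smallest ribosomal protein gene product, was the most abundant member in both libraries, at 10768 and 14887 FPKM (relative log2 fold -0.39). In the deficient library the level was spread over more genes: the first 5, with Rpl41, Rpl7, Rpl32 and Rpl4 among them, held 40.4%. Members of at least 1000 FPKM numbered 12 in the floxed and 20 in the deficient library, and kept members under 10 FPKM numbered 5 and 1. The order of the members was otherwise similar, with Pearson r 0.88 and Spearman rho 0.93 between the libraries over 81 members, against 0.89 and 0.83 over all 10717 kept loci. These are correlations across genes, which are not independent replicates.

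Lower members were found mostly among the most abundant ones. Of the 12 members of at least 1000 FPKM in the floxed library, 7 were lower and 0 higher, with a relative median of -1.09. Of the 32 members under 100 FPKM there, 12 were higher and 1 lower, with a relative median of 0.62. The floxed value enters both the grouping and the fold, which by itself tilts such a comparison. Grouped by the mean of both libraries, the 16 members of at least 1000 FPKM had a relative median of -0.13, with 43.8% lower. All 110 kept loci at that level had a relative median of -0.77, with 45.5% lower. Among loci of at least 100 FPKM in both libraries, the 49 members had a relative median of -0.02 and all 639 such loci -0.46.

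Of the small subunit members that were higher, Rps12 differed most. Rps12 and Rps10 are proteins of the beak of the small subunit. Rps12 (mm9 chromosome 10, 23504865 to 23507840) was at 2.70 FPKM in the floxed and 60.9 FPKM in the deficient library, a relative log2 fold of 3.21, and was the lowest kept member in the floxed library. Its 518-nt transcript was at 0.16 FPKM (bounds 0 to 0.86) and 38.2 FPKM (29.8 to 46.7). Rps10 (chromosome 17, 27767374 to 27772187) was at 6.56 and 50.1 FPKM (1.90). Both genes were thus among the 5 kept members under 10 FPKM in the floxed library, and both passed 50 FPKM in the deficient one.

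Other small subunit members that were higher lay on chromosome 7. Rps15a was at 60.5 and 285 FPKM (1.36), and Rps13 at 18.7 and 77.7 FPKM (1.14). Just under 2-fold lay Rps16 of chromosome 7 (78.0 and 280 FPKM, 0.97) and Rps15 of chromosome 10 (332 and 1075 FPKM, 0.84). Rps2, which lies near the messenger RNA entry channel, was low in both libraries, at 5.20 and 18.0 FPKM (0.76).

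Among large subunit members, Rpl27a and Rpl18 were highest by fold and low in level. Rpl27a (chromosome 7, 116662709 to 116665883) was at 3.74 and 36.7 FPKM (2.13). Rpl18 (chromosome 7, 52973441 to 52976205) was at 6.38 and 48.9 FPKM (1.90). Rpl35a, mutated in some patients with Diamond-Blackfan anaemia, an inherited failure of red cell formation, was at 68.9 and 349 FPKM (1.47), and Rpl28, which is found in animals and not in yeast, at 23.3 and 117 FPKM (1.42). Rpl30, which contacts the small subunit, was at 94.9 and 390 FPKM (1.17) and the X-linked Rpl36a, near the exit site of transfer RNA, at 24.2 and 104 FPKM (1.20). All of these were below the median member of the floxed library.

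The members that were lower came from the top of the level order, apart from Rpl39l and Rps6. Rps18, a protein of the head of the small subunit (chromosome 17, 34088944 to 34092646), was at 4469 and 1644 FPKM (-2.30), the third highest member in the floxed library. Rps28, near the exit of the messenger RNA, was at 3657 and 2202 FPKM (-1.59). Rps14, the gene tied to the anaemia of the 5q deletion syndrome, was at 2915 and 2550 FPKM (-1.05), a small difference as deposited. Rps6, the ribosomal protein that S6 kinases phosphorylate, was at 238 and 200 FPKM (-1.11).

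Of the large subunit genes, 6 were lower, with Rpl39l and Rplp0 described below. Rpl4, which lines the exit tunnel, was at 4089 and 3388 FPKM (-1.13), and Rpl35, at the tunnel's mouth, at 3326 and 2118 FPKM (-1.51). Rpl32 was at 5403 and 4029 FPKM (-1.28). Just inside 2-fold were Rpl34 (49.0 and 46.5 FPKM, -0.93) and Rpl14 (716 and 727 FPKM, -0.84). As deposited only Rpl39l, Rps18 and Rplp0 were at least 2-fold lower, so the other 7 depend on setting values against the median locus. With a pseudocount of 5 FPKM Rpl4, Rpl32, Rps6 and Rps14 were within 2-fold. Among the higher members, Rpl30, Rps13, Rpl22l1 and Rps27l were within 2-fold with upper-quartile scaling, and also Rpl36a with a filter of 5 FPKM or a pseudocount of 0.1 FPKM.

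**Figure D2:**
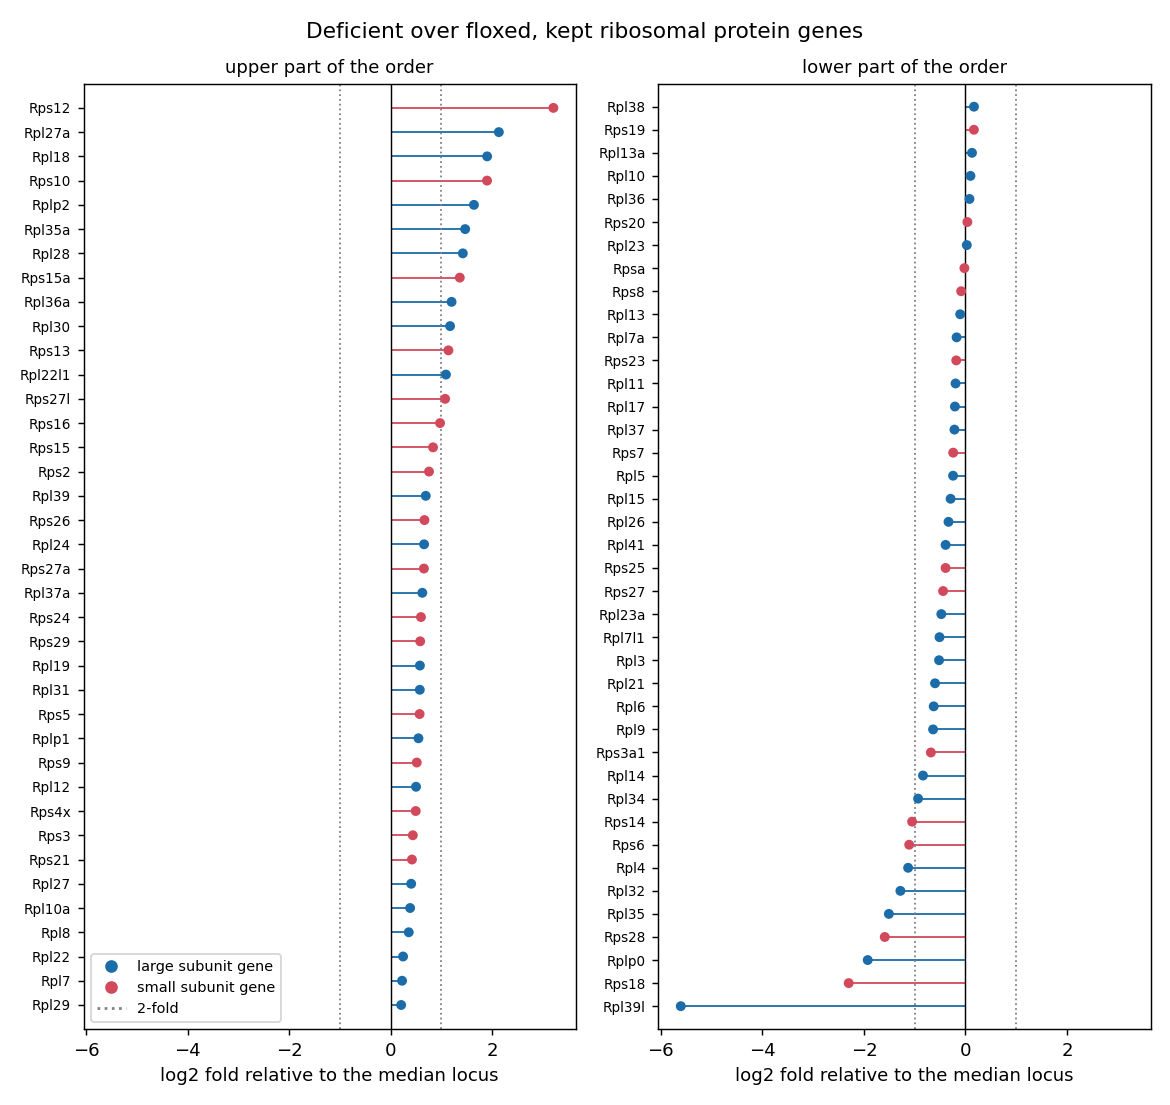
Relative log2 fold (deficient minus floxed, against the median kept locus) of 78 kept members, in order, with large subunit genes in blue, small subunit genes in red and dotted lines at 2-fold. Of these members 13 lie beyond the right line and 9 beyond the left, and both subunits are found at both ends.

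The 3 proteins of the stalk, the flexible arm of the large subunit that recruits elongation factors, differed from each other. Rplp0, the base of the stalk (chromosome 5, 116009476 to 116013738), was at 1356 FPKM in the floxed and 647 FPKM in the deficient library (-1.92). Its partners were on the other side of the median locus. Rplp1 was at 239 and 635 FPKM (0.55) and Rplp2 at 195 and 1108 FPKM (1.64). Most of the Rplp2 value came from a 263-nt transcript (138 and 945 FPKM), and its transcripts of at least 300 nt summed to 57.1 and 163 FPKM. On those alone Rplp2 was not higher by the 2-fold rule. Rplp0 is often used as a reference gene in PCR, and here it was among the members with the lowest folds.

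Rpl5 and Rpl11, which form a particle with 5S ribosomal RNA that can bind Mdm2 and raise p53, stayed near the median locus. Rpl5 was at 31.9 and 49.3 FPKM (-0.24) and Rpl11 at 68.4 and 109 FPKM (-0.19). The 4 X-linked members all lay above the median locus. Rpl10, needed for the last steps of large subunit maturation, was at 117 and 228 FPKM (0.10), Rps4x at 157 and 401 FPKM (0.49) and Rpl39, of the exit tunnel, at 167 and 492 FPKM (0.69), beside Rpl36a above.

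Of the 4 kept paralogs, Rpl39l and Rps27l differed from their parent genes by more than 2-fold (differences of log2 folds -6.30 and 1.51). Rpl22l1 and Rpl7l1 differed by less (0.84 and -0.74). Rpl39l, a copy of Rpl39 best known from testis (chromosome 16, 10170321 to 10175004), was at 49.9 FPKM (bounds 43.8 to 55.9) in the floxed and 0.89 FPKM (0.09 to 1.69) in the deficient library. That was 56.0-fold lower as deposited and the lowest fold of any member, while Rpl39 was at 167 and 492 FPKM. The ratio of Rpl39l to Rpl39 was 0.30 in the floxed and 0.0018 in the deficient library. Rps27l, a paralog of Rps27 known as a p53 target, was at 382 and 1460 FPKM (1.07), and Rps27 at 262 and 350 FPKM (-0.44). The Rps27l to Rps27 ratio was 1.46 and 4.17, so the paralog had the higher FPKM in both libraries. Rps27 had 3 near-identical annotated pseudogenes and Rps27l 0, so the order of the 2 levels is uncertain. Rpl22l1 was at 52.6 and 206 FPKM (1.09) and Rpl22, an RNA-binding large subunit protein, at 28.8 and 62.9 FPKM (0.25), a ratio of 1.83 and 3.27. Rpl7l1, which works in large subunit assembly, was at 88.1 and 112 FPKM (-0.51). Its parent Rpl7 was at 2032 and 4304 FPKM (0.23), of which transcripts of at least 300 nt made up 275 and 455 FPKM. Rpl3, which reaches toward the peptidyl transferase centre, was at 383 and 484 FPKM (-0.52) beside the absent Rpl3l.

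The chromosome that a member lies on went with its fold. All 14 members on chromosome 7 lay above the median locus, with a relative median of 1.06 and a range from 0.13 to 2.13, and 7 were higher and 0 lower. They made up 7 of the 14 higher members of the family. The 684 other kept loci of chromosome 7 had a relative median of 0.39, with 20.2% higher and 4.97% lower, and the 47 of them with a mean of at least 100 FPKM had a median of 0.51. Of the 14 members 12 lay above the median of the chromosome's other loci. On chromosome 10 the 4 members had a relative median of 0.75 and the other loci 0.35. Chromosome 5 was the opposite case: its 5 members (Rplp0, Rpl6, Rpl9, Rpl21 and Rpl5) had a relative median of -0.62, 0 of them lay above the median locus, and its other loci had a median of -0.26.

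Over the 13 chromosomes with at least 3 members, the members' median and that of the other loci had Pearson r 0.89 and Spearman rho 0.96. Taken member by member, the fold and the chromosome's other median had r 0.42 and rho 0.55 over 81 members. All of these values come from the same pair of libraries and share their totals, so they are a description. Set against the median of its own chromosome, 12 members were higher (9.41% of kept loci) and 9 lower (11.1%), with a median of 0.16. Rps13, Rps15a and Rps6 were no longer past 2-fold. Without the members of chromosome 7 the relative median was -0.02, with 7 of 67 higher and 10 lower. What sets the chromosome medians apart was not tested.

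**Figure D3:**
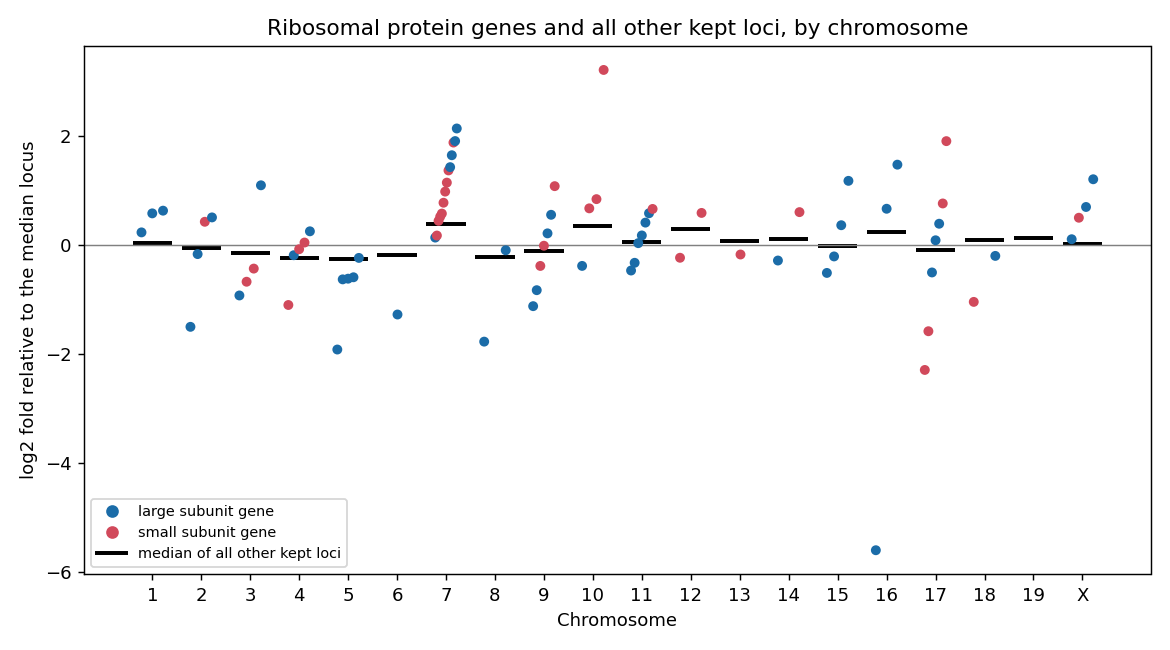
Relative log2 fold of each kept member by chromosome (points, large subunit blue, small subunit red) with the median of all other kept loci of that chromosome as a black bar. The 14 points of chromosome 7 all lie above 0, those of chromosome 5 all lie below it, and the black bars of the same chromosomes are at 0.39 and -0.26.

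Several members changed which of their transcripts was most abundant. Of 41 members with at least 2 transcripts of 1 FPKM or more, 11 had a different major transcript in the libraries, and in 9 at least 25% of the FPKM had moved between transcripts. These splits are Cufflinks estimates from short, overlapping transcripts. The same counts were not made for other loci, so they cannot be read as particular to these genes. Rpl39 was assigned wholly to a 394-nt transcript in the floxed library (167 FPKM, bounds 136 to 199) and wholly to a 384-nt transcript with another first exon in the deficient library (492 FPKM, bounds 455 to 528). In Rpl22 the 2040-nt transcript went from 25.03 to 9.44 FPKM and the 2077-nt transcript from about 0 to 33.3 FPKM, so 72.0% of its FPKM moved. In Rps18 the 524-nt transcript was at 2272 and 204 FPKM and the 427-nt transcript at 2143 and 1014 FPKM, while a 565-nt form went the other way, from 54.3 to 426 FPKM.

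Rps24, a small subunit protein gene of Diamond-Blackfan anaemia with a known alternative 3′ end, is shown in more detail because its forms differ by a single small exon. In the GENCODE M21 annotation (GRCm38) this exon lies at chr14:24495430-24495449 on the plus strand, and capitals mark the exon.
Rps24 exon: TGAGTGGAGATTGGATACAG
The 857-nt transcript has an exon of that length and was at 74.6 FPKM (bounds 66.2 to 83.0) in the floxed and 121 FPKM (108 to 133) in the deficient library. The 837-nt transcript, without it, was at 62.6 FPKM (54.5 to 70.6) and 256 FPKM (241 to 271). The form with the exon thus held 54.4% of Rps24 FPKM in the floxed and 31.9% in the deficient library, and the gene as a whole was at 137 and 378 FPKM (relative log2 fold 0.60).

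**Figure D4:**
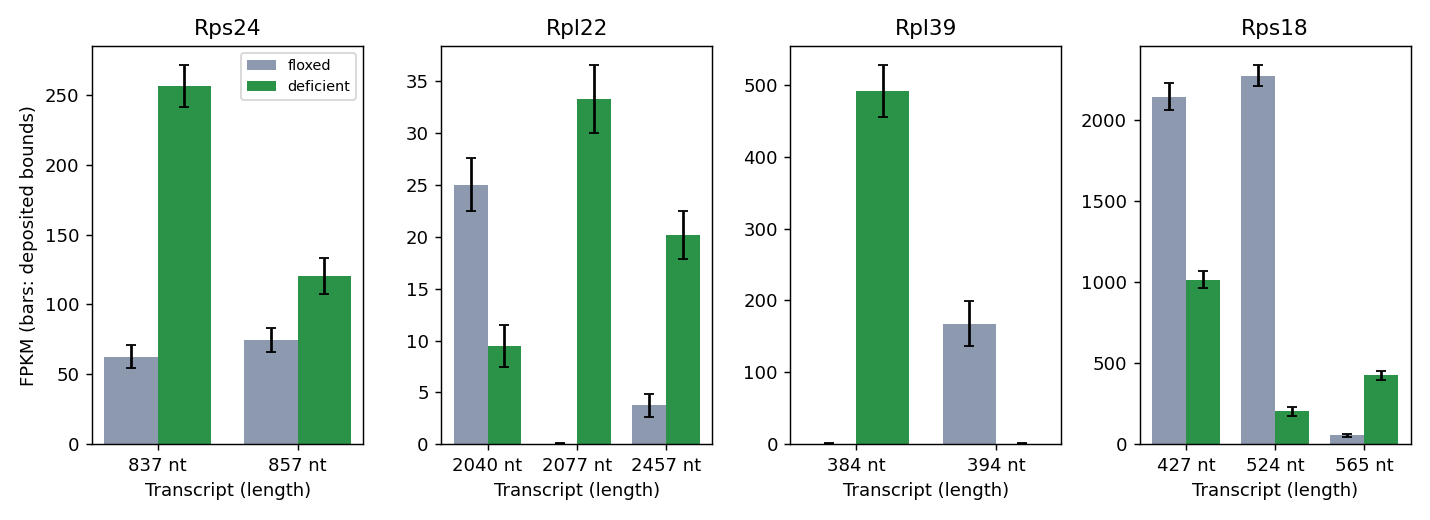
FPKM of the transcripts of Rps24, Rpl22, Rpl39 and Rps18 that reached 1 FPKM, named by length, in the floxed (grey) and deficient library (green); whiskers are the deposited bounds of 1 library, not replicate error. The major transcript differs between the libraries in each of the 4 genes.

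Ribosomal protein genes have many processed pseudogenes. Reads from a stretch that a gene and a near-identical copy share exactly cannot be told apart, so levels of members with such copies are uncertain. How far this affected the levels was not tested. Of the 81 kept members 71 had at least 1 annotated pseudogene by the rule used, 40 had at least 5 and 10 had none. The rule asked for 95% identity or more over at least 200 nt. The match also had to span at least 80% of the shorter of message and pseudogene. Shorter matches were not counted, so a 0, as for the abundant Rpl41, does not show that a gene has no copy. The groups and correlations below carry this limit. Rpl21 had the most, with 59, and was at 27.2 and 32.8 FPKM. Members with 5 or more copies had median levels of 109 and 222 FPKM, and the 21 members with 0 or 1 copy 342 and 839 FPKM. Across the 81 members the number of copies and log2 FPKM had Spearman rho -0.33 in the floxed and -0.38 in the deficient library. The fold did not follow the copies in the same way, with rho -0.03 and relative medians of 0.03 for 5 or more copies and 0.36 for 0 or 1. Of the lowest members in the floxed library, Rps12 had 21 copies, Rpl27a 11 and Rps2 26, but Rpl18 had 3 and Rps10 had 2. Without the 40 members of 5 or more copies, 7 members were higher and 8 lower.

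**Figure D5:**
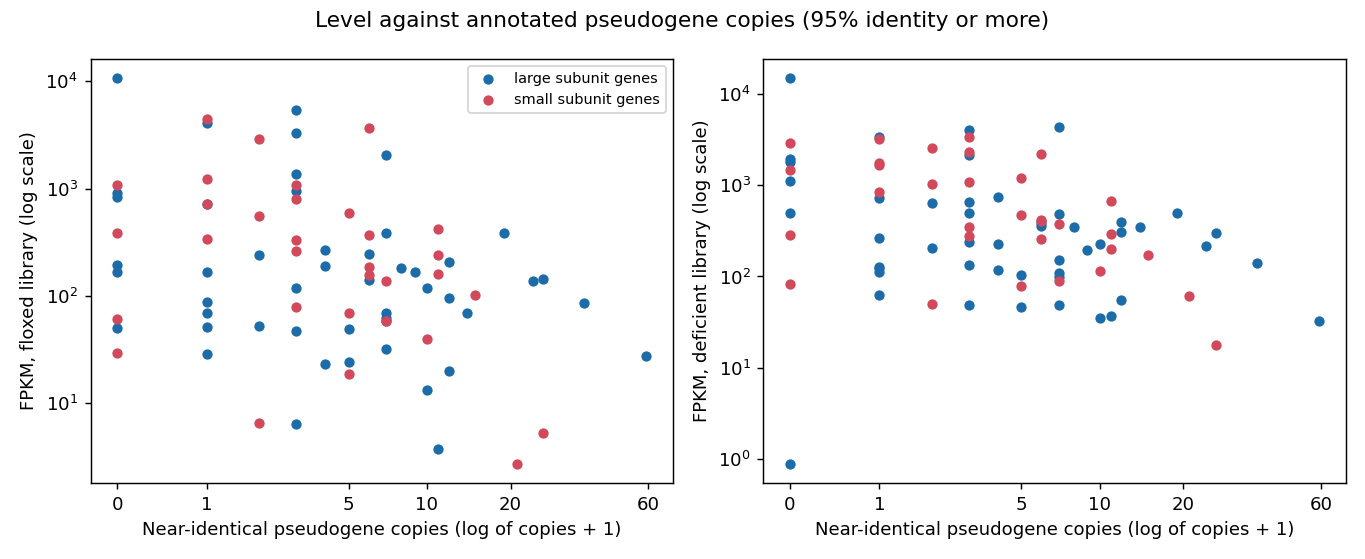
FPKM of each kept member (log scale) in the floxed (left) and deficient library (right) against its number of near-identical annotated pseudogenes, with the number plus 1 on a log scale. Members with many copies lie lower in both panels, with Spearman rho of -0.33 and -0.38 over 81 members. Copies that match over less than 200 nt are not counted.

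Of the kept members 30 hold annotated small nucleolar RNA genes within their span, on the same strand. Small nucleolar RNAs guide the modification of ribosomal RNA. These hosts had a relative median of 0.00, with 16.7% higher and 10% lower, and the 51 other members 0.36, with 17.6% higher and 13.7% lower, against 10.3% and 11.7% of all kept loci.

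Members held 2.80% of covered bases in the floxed and 2.94% in the deficient library, and 3.02% and 3.51% when only transcripts of at least 300 nt were counted. By summed FPKM the direction depended on what was included: their share was 8.62% and 10.6% of kept loci, and 3.36% and 1.99% of all transcripts.

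Other genes of translation were described in the same way, from 5 lists, in which 19 genes were higher and 4 lower in all. Counts in each list can be read against 10.3% higher and 11.7% lower among all kept loci. Of the ribosome genes outside the naming rule, Rack1, a scaffold on the small subunit, was at 282 and 890 FPKM (0.80) and Fau, which encodes a small subunit protein fused to a ubiquitin-like one, at 77.4 and 136 FPKM (-0.05). Rps27a, a member made as a fusion with ubiquitin, was at 39.4 and 114 FPKM (0.66). Elongation factors and other genes with TOP messages had a relative median of 0.42, with 1 of 15 higher and 1 lower. Eef1a1, which brings aminoacyl-tRNA to the ribosome, was at 3664 and 4215 FPKM (-0.65), Pabpc1, the poly(A)-binding protein gene, at 743 and 557 FPKM (-1.27), and Nap1l1, a histone chaperone gene, at 7.18 and 47.7 FPKM (1.72).

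Genes that make ribosomes had a relative median of 0.72, and of 0.50 with a pseudocount of 5 FPKM, where elongation factors and other TOP genes were at 0.80 and EIF3 genes at 0.78. Of 47 matched ribosome biogenesis genes 11 were higher and 2 lower, and 34 were at least 2-fold higher as deposited (41.9% of kept loci). Ddx21, a nucleolar helicase, was at 1.82 and 18.4 FPKM (1.92), Ltv1, an assembly factor of the small subunit, at 4.49 and 29.1 FPKM (1.60), and Rrp1, of large subunit maturation, at 1.35 and 13.4 FPKM (1.77). Sbds, which helps to release Eif6 from new large subunits, was at 109 and 90.7 FPKM (-1.12), and Eif6 itself at 7.61 and 36.7 FPKM (1.27). Of 13 subunits of EIF3, the scaffold of initiation, 3 were higher and 0 lower (median 0.46), with Eif3h at 31.5 and 169 FPKM (1.53). Of 22 other initiation factors 4 were higher and 0 lower (median 0.36), with Eif5 at 7.55 and 146 FPKM (3.24).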

How the data were processed

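The authors deposited 1 transcript table per library, with FPKM, its lower and upper bounds and coverage in an attribute text field, as Cufflinks writes it, per the file headers and fields. This other kind of value, text with FPKM inside, was deposited with no read counts. Per the submitters' processing notes, TopHat2 2.0.5, Cufflinks 2.0.2 and Cuffdiff 2.0.2 were used with build mm9, in roles not stated. What annotation, filters, strand setting and handling of reads with several matches applied is not given in the sources used here, and FPKM moves with each library's total.

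The files hold no symbols. Loci were named by matching ordered intron and internal exon lengths to GENCODE M21 on the same chromosome and strand, and loci with several genes were split. All 82 members were matched by a whole chain of at least 2 introns, and 0 of 36943 chains matched on a wrong chromosome. Gene coordinates are those of the files (mm9). Promoter windows (RefSeq, GRCm38.p6) and exon sequence (GENCODE, GRCm38) were read from tables, and no coordinate was converted. FPKM was summed per gene. Loci of at least 1 FPKM in 1 library with a transcript of at least 300 nt were kept (10717), and a gene was called at 2-fold, by size alone. Pseudogene copies were counted with blastn 2.17.0. Python 3.11.15, numpy 2.4.6, pandas 2.3.3, scipy 1.17.1 and matplotlib 3.10.9 were used. Only the calling step was tested on simulated data, with levels above the 1 FPKM filter and changes larger than 2-fold. That does not check calls near those limits.

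Named were the members with the 8 highest and 8 lowest relative folds, the 5 highest levels, paralog pairs, stalk, 5S particle and X-linked members, up to 4 genes of at least 5 FPKM per companion list, of which only some are given, and others chosen after their values were seen. The members, lists and rules were chosen with earlier results of these data known. Values of a few members and list genes are not reported here, although counts and medians include them.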

Additional observations from a re-analysis of the deposited data

How the results depend on the processing

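With 1 library per genotype, leaving out a replicate was not possible. No paired analysis was possible because each genotype has 1 library. Depth is unknown, so no counting interval can be given. All 14 higher members stayed above 0 and all 10 lower members below 0 under each scaling, filter, pseudocount and transcript choice tried. Scalings and filters move all members by much the same amount, and these members were picked at 2-fold. A change of sign under them was therefore hardly possible. The calls themselves moved more. As deposited, 3 of the 10 lower members were still called, and with a filter of 5 FPKM 9 of the 14 higher ones. The counts below are of members higher, members lower and, for the 5 companion lists, genes higher and lower (19 and 4 as reported).

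As deposited the values were 42, 3, 70 and 0, with medians of 1.03 for all members, 0.94 for the large and 1.36 for the small subunit. TPM gave 37, 4, 68 and 0 (medians 0.90, 0.81 and 1.24), and no filter on low values 40, 3, 69 and 0 (0.97, 0.86 and 1.31). Upper-quartile scaling gave medians of -0.0501, -0.141 and 0.28. A pseudocount of 0.1 FPKM gave 9 higher (medians -0.11, -0.20 and 0.23), and one of 5 FPKM 6 lower (0.57, 0.49 and 0.87) and 0 companion genes lower. A filter of 5 FPKM gave 9 higher (-0.0470, -0.136 and 0.29) and 12 companion genes higher. At 1.5-fold the counts were 24, 16, 46 and 7, and at 4-fold 2, 2, 2 and 0. The share of the floxed library was 3.36% of all FPKM and 8.62% of kept FPKM, against 2.80% of covered bases. For the deficient library it was 1.99% and 10.6%, against 2.94%. On covered bases of transcripts of at least 300 nt the shares were 3.02% and 3.51%.

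Chosen after seeing the data, values relative to the own chromosome gave a small subunit median of 0.28 and 1 companion gene lower. Without chromosome 7 there were 7 higher (medians -0.0198, -0.138 and 0.0389), and without members of 5 or more pseudogene copies 7 higher (median 0.38), in both cases among fewer genes. For the other changes the cause was not tested. All transcript lengths, whole chains only, and the most abundant transcript kept the counts of higher and lower members within 1.5-fold.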
